A study of Homo sapiens with 19 samples.

Results

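NF-kB is a family of transcription factors built from paired Rel proteins, and the IkB proteins are the partners that hold those pairs in check or steer them on DNA. The 10 genes described here are the 5 subunits (NFKB1, NFKB2, REL, RELA and RELB) and 5 IkB proteins (NFKBIA, NFKBIB, NFKBIE, NFKBIZ and BCL3). They were chosen by name, with earlier results of these data known, from the 25365 genes of the OCI-LY10 table, and all 10 were found in each of the 3 tables.

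The study targeted EGR1, an immediate early transcription factor, with short hairpin RNAs in OCI-LY10, TMD8 and SUDHL2, established human cell lines whose labels class them as ABC DLBCL (diffuse large B-cell lymphoma of the activated B-cell-like kind). Every group carried a doxycycline-inducible hairpin (a control hairpin, shEGR1#8 or shEGR1#9) and was induced with doxycycline at 20 ng/ml over 2 days, so the control libraries share the drug and the transduction. OCI-LY10 has 3 RNA libraries per group, and TMD8 and SUDHL2 have 1 per group, which makes 15. No label states separate cultures, so p-values measure the spread between libraries, which may be technical.

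NF-kB dimers wait in the cytoplasm bound to IkB proteins until the IkB kinases mark these for destruction. Freed dimers enter the nucleus and switch on their targets, among them the genes of their own inhibitors and precursors, which closes a feedback loop. In the canonical arm RELA or REL pairs with the product of NFKB1, and in the alternative arm RELB pairs with the product of NFKB2. Activated B-cell-like lymphoma is known for constant canonical signalling, fed by the B-cell receptor and MYD88.

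Promoter sequence was available for 8 of the 10 genes (14 windows, 250 bases before to 50 bases after an annotated start, from RefSeq on GRCh38.p14). The stretches below are shown because each holds a 10-base match to the NF-kB consensus, found in most of these genes. Capitals mark the match, which in REL and NFKBIB is 2 overlapping matches on opposite strands, 1 base apart, and, in NFKB1 and REL, a separate 9-base EGR1 motif. The first 4 are the 250 bases that precede an annotated start.

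NFKBIA, chr14:35404750-35404999, minus strand: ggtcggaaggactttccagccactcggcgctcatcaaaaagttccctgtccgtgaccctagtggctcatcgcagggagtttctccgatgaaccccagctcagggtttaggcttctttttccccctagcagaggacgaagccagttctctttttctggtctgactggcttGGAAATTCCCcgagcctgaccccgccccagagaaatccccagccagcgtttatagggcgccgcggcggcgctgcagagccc
NFKB1, chr4:102501109-102501358, plus strand: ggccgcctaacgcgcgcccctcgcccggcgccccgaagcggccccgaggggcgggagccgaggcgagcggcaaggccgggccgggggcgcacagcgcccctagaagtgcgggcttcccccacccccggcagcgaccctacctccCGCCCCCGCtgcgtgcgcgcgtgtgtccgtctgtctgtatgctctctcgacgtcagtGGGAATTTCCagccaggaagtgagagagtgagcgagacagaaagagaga
NFKBIZ, chr3:101827740-101827989, plus strand: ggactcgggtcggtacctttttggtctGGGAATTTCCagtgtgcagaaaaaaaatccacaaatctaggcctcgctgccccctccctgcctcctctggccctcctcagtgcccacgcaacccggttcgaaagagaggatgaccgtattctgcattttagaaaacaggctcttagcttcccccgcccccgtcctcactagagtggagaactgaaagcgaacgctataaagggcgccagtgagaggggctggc
REL, chr2:60881324-60881573, plus strand: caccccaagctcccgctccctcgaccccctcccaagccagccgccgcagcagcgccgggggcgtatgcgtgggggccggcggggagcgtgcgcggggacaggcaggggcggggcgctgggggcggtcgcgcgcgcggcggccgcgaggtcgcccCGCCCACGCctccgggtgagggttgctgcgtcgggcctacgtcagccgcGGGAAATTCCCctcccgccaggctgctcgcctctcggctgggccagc

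For NFKB2 and NFKBIB, 30 bases around a match are enough to show it.

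NFKB2, chr10:102394490-102394519, plus strand: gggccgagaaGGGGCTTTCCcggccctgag
NFKB2, a later start, chr10:102395674-102395703, plus strand: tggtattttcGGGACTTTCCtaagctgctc
NFKBIB, chr19:38899932-38899961, plus strand: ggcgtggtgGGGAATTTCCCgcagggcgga

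The NF-kB consensus, searched on both strands, was found in 7 of the 8 genes with a window (9 of 14 windows), against 11.3% of 35116 RefSeq windows of that length. RELA was the gene without a match in its windows. The same 10 letters, GGGAATTTCC on one strand or the other, stood in the windows of NFKB1, REL, NFKBIA, NFKBIB and NFKBIZ. Those letters lay 49 bases before an annotated start in NFKB1, 81 in NFKBIA, 223 in NFKBIZ, 46 in REL and 28 in NFKBIB. NFKB1, NFKBIB and NFKBIZ have more than 1 annotated start. The later NFKBIZ start had a different match, 239 bases before it. The EGR1 motif GCGTGGGCG occurred in REL, 96 bases before the start (0.795% of windows hold it). GCGGGGGCG occurred in NFKB1, 106 bases before the same start as its NF-kB match (5.07% of windows). These motifs were searched on both strands and overlap neither each other nor the NF-kB match. A match describes the letters and is no measure of binding, and EGR1 chromatin data were not analysed here.

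Of the libraries as a whole, OCI-LY10 held 10319 to 10499 genes at 1 FPKM (fragments scaled to gene length and library size) or more, and the counts behind a value are unknown. EGR1 itself was not lower in the hairpin libraries of OCI-LY10: the control libraries held 8.57, 9.59 and 12.3 FPKM, those labelled shEGR1#8 10.04, 11.4 and 20.5, and those labelled shEGR1#9 10.8, 11.8 and 22.7 (log2 difference 0.42, limma adjusted p = 0.349). In every OCI-LY10 group EGR1 was lowest in replicate 1 and highest in replicate 3. With a replicate block its difference was again 0.42 (limma adjusted p = 0.0540). In TMD8 EGR1 was also higher in both hairpin libraries (7.31 against 10.8 and 9.95 FPKM), and in SUDHL2 it was lower (17.0 against 13.7 and 15.4). Directions below therefore belong to the libraries labelled with a hairpin, whose EGR1 RNA gives no check of the labels. Libraries labelled TMD8 and SUDHL2 did not stand apart by label: across 13203 genes they correlated at 0.867 to 0.930 with each other's label, at 0.893 to 0.915 within TMD8 and at 0.905 to 0.925 within SUDHL2, while OCI-LY10 libraries correlated at 0.981 to 0.994 among themselves. All 8 B-cell markers reached 1 FPKM in OCI-LY10. Of the T and NK markers PRF1 alone was tested and rose by 0.44 log2 units (summed list 7.68 to 8.95 FPKM in controls, 11.1 to 12.6 and 11.3 to 12.5 with the hairpins), while 7 of 11, among them CD3G, CD4, CD2 and NKG7, were at 0 in every OCI-LY10 library. Myeloid markers summed to at most 0.0793 FPKM in OCI-LY10, with 6 of 8 at 0. Of the fibroblast and epithelial and the erythroid and endothelial lists, EPCAM (log2 difference 0.25, limma adjusted p = 0.0794) and PECAM1 (−0.04, limma adjusted p = 0.827) were tested there and did not pass.

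In the control libraries of OCI-LY10 the IkB proteins spanned the whole range of levels. NFKBIA (82.5 ± 3.41 FPKM) and NFKBIE (80.8 ± 2.36, SD, n = 3 control libraries) led and overlapped, and NFKBIZ followed at 55.3 ± 3.03, apart from its neighbours. NFKB2, RELA and NFKB1 came next at 33.0 ± 0.890, 32.1 ± 1.95 and 31.0 ± 0.963, an order whose neighbours overlapped. REL (20.1 ± 0.768) and RELB (18.1 ± 1.74) overlapped, NFKBIB stood at 15.8 ± 0.338 and BCL3 was lowest at 9.31 ± 0.775. With either EGR1 hairpin label NFKBIE had the highest mean of the 10, ahead of NFKBIA, although the libraries of these 2 genes overlapped with shEGR1#9.

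In OCI-LY10, 5 of the 10 genes rose in the hairpin libraries against control and 0 fell by limma (7 and 0 at an unadjusted p under 0.05). Those that rose were the precursor subunits NFKB1 and NFKB2 and the IkB proteins NFKBIA, NFKBIE and NFKBIZ, by 0.20 to 0.61 log2 units on the log2(FPKM + 1) scale. RELA, REL, RELB, NFKBIB and BCL3 did not pass. Among all 10612 genes tested, 5.84% rose and 2.71% fell by the same rule (limma, adjusted p under 0.05). Unadjusted, 2767 of these genes had a limma p under 0.05, in either direction. Of all genes, 620 rose and 288 fell as deposited, and 492 rose and 407 fell after median-ratio scaling of the libraries. The median difference was 0.28 over the 10 genes and 0.03 over all genes. In bulk RNA, fewer cells of a kind and less RNA per cell cannot be told apart. In 6 of the 10 genes all 6 hairpin libraries lay above all 3 controls, against 12.9% of all genes. Leaving out control replicate 1 left 3 of the 5 calls (NFKB2, NFKBIA and NFKBIE), and the number called ranged from 3 to 6 over the alternatives tried.

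**Figure D1:**
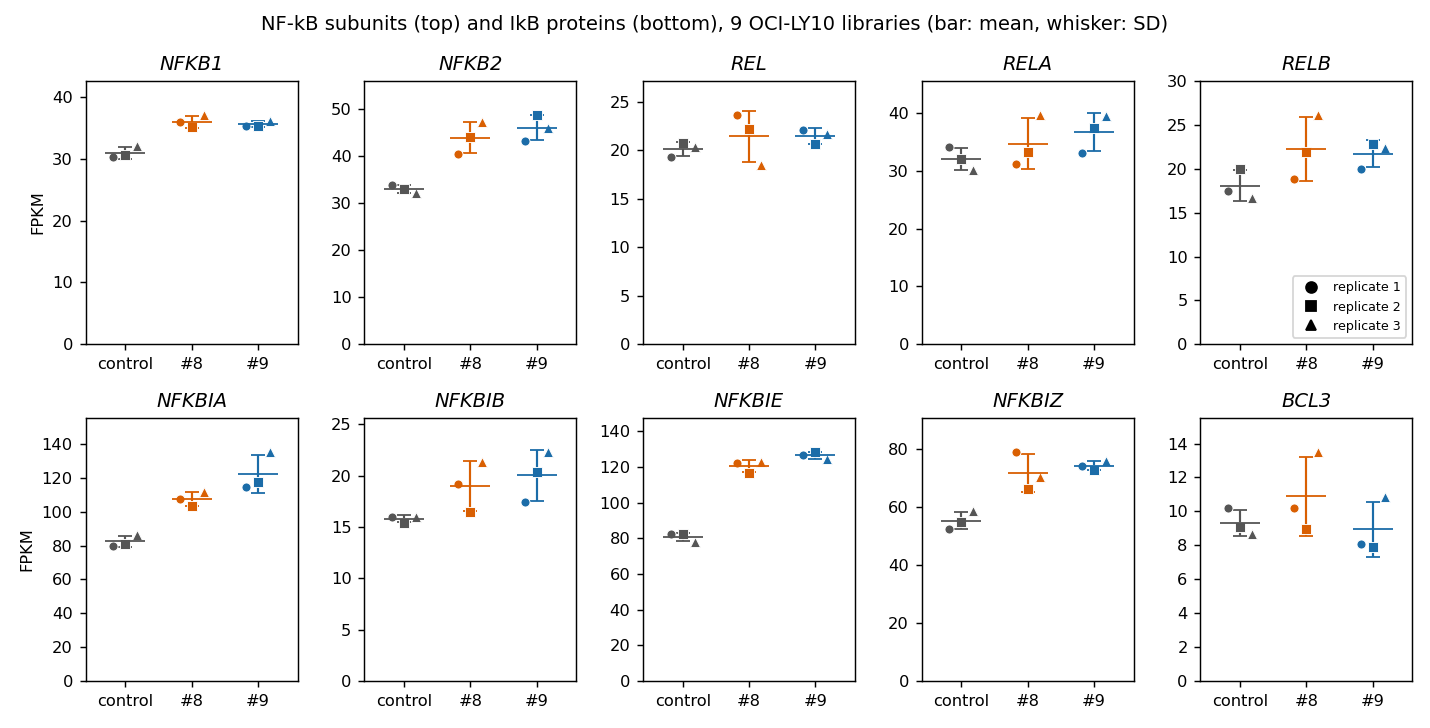
FPKM of the 10 genes in the 9 OCI-LY10 libraries, by group on the x axis (control hairpin, shEGR1#8, shEGR1#9), with a marker shape per replicate number, a bar at the mean and whiskers of 1 SD. For NFKBIE the 6 hairpin libraries sit between 116.5 and 128.4 FPKM, above the controls at 78.1 to 82.3, whereas the groups of REL, RELA, RELB and BCL3 overlap.

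The subunit that rose most was NFKB2, the precursor that yields the alternative-arm partner of RELB. Its controls held 33.9, 33.0 and 32.1 FPKM, the libraries labelled shEGR1#8 40.6, 44.1 and 47.4, and those labelled shEGR1#9 43.4, 48.7 and 46.1. Every hairpin library was above every control. On the log2 scale NFKB2 rose by 0.43 (SE 0.061, 95% interval 0.30 to 0.57, limma adjusted p = 0.00434).

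NFKB1, the precursor of the canonical DNA-binding partner, moved less. The control libraries held 30.3, 30.7 and 32.1 FPKM, those labelled shEGR1#8 36.0, 35.1 and 37.1, and those labelled shEGR1#9 35.4, 35.3 and 36.2. The groups did not overlap and the spread within each was small. The log2 difference was 0.20 (SE 0.044, interval 0.10 to 0.30, limma adjusted p = 0.0238). This call ended with scaling of the libraries by their median ratio (limma adjusted p = 0.0586) and without any 1 control or any 1 shEGR1#9 library (limma adjusted p = 0.0558 to 0.120), and also without the libraries numbered 3 of every group (limma adjusted p = 0.0693). RefSeq also places 3 non-coding genes over NFKB1, and the use of strand in counting is not stated in the labels or tables.

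RELB, the alternative-arm activator, had controls at 17.5, 20.0 and 16.7 FPKM, shEGR1#8 libraries at 18.9, 21.9 and 26.1, and shEGR1#9 libraries at 20.0, 22.9 and 22.4. The groups overlapped, since 2 of the 6 hairpin libraries lay below the highest control. The log2 difference was 0.27 (interval 0.04 to 0.50, limma adjusted p = 0.136), a larger point estimate than that of NFKB1 with a larger standard error (0.101).

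RELA, the main canonical activator, had controls at 34.1, 32.0 and 30.2 FPKM, shEGR1#8 libraries at 31.3, 33.3 and 39.6, and shEGR1#9 libraries at 33.2, 37.5 and 39.5. The groups overlapped, and the highest library of each hairpin was replicate 3. On the log2 scale RELA differed by 0.15 (interval −0.05 to 0.34, limma adjusted p = 0.314).

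REL, the canonical activator known for its role in activated B cells, had controls at 19.3, 20.8 and 20.3 FPKM, shEGR1#8 libraries at 23.6, 22.2 and 18.5, and shEGR1#9 libraries at 22.1, 20.6 and 21.7. The lowest of the 9 values belonged to an shEGR1#8 library, and the groups overlapped. For REL the log2 difference was 0.09 (interval −0.08 to 0.25, limma adjusted p = 0.497).

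Of the IkB proteins, NFKBIE, which encodes IkB-epsilon, a cytoplasmic inhibitor of REL and RELA dimers, changed most. The controls held 82.1, 82.3 and 78.1 FPKM, the shEGR1#8 libraries 122.4, 116.5 and 122.5, and the shEGR1#9 libraries 126.9, 128.4 and 124.2. The gap between control and hairpin libraries was wider than the range within any group. The log2 difference of 0.61 (SE 0.043, interval 0.51 to 0.70, limma adjusted p = 1.82e-04) exceeded that of 98.6% of all genes tested, and it passed in each alternative run for this contrast.

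NFKBIA encodes IkB-alpha, the classic feedback inhibitor that pulls RELA dimers out of the nucleus. Its controls held 79.9, 81.1 and 86.3 FPKM, the shEGR1#8 libraries 107.4, 103.5 and 111.7, and the shEGR1#9 libraries 114.9, 117.3 and 135.3. The hairpin groups did not overlap with control or with each other. The log2 difference of both against control was 0.47 (SE 0.063, interval 0.33 to 0.61, limma adjusted p = 0.00337).

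NFKBIZ encodes IkB-zeta, a nuclear IkB protein that acts on DNA-bound dimers and switches on a group of secondary targets. The controls held 52.6, 54.8 and 58.6 FPKM, the shEGR1#8 libraries 78.9, 66.1 and 70.5, and the shEGR1#9 libraries 74.3, 72.7 and 75.9. All 6 hairpin libraries were above the controls. The log2 difference was 0.39 (SE 0.064, interval 0.25 to 0.54, limma adjusted p = 0.00784), and without control replicate 1 it just missed the threshold (0.36, limma adjusted p = 0.0503). The gene NXPE3, which RefSeq places over NFKBIZ, stayed between 9.36 and 11.5 FPKM in the 9 libraries.

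BCL3, the other nuclear IkB protein, a partner of the NFKB1 and NFKB2 products on DNA, had controls at 10.2, 9.06 and 8.69 FPKM, shEGR1#8 libraries at 10.2, 8.97 and 13.5, and shEGR1#9 libraries at 8.10, 7.90 and 10.8. The groups overlapped and the highest library of each hairpin was again replicate 3. For BCL3 the log2 difference was 0.06 (interval −0.23 to 0.36, limma adjusted p = 0.783), and it turned to −0.12 without the libraries numbered 3.

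NFKBIB, which encodes IkB-beta, a slower cytoplasmic inhibitor, had controls at 16.0, 15.4 and 15.9 FPKM, shEGR1#8 libraries at 19.2, 16.4 and 21.3, and shEGR1#9 libraries at 17.4, 20.4 and 22.3. All 6 hairpin libraries were above the controls, but they were spread widely. The log2 difference of 0.28 (SE 0.093, interval 0.07 to 0.49) did not pass (limma adjusted p = 0.0962), although it was larger than that of NFKB1, which did. Without shEGR1#8 replicate 2, the lowest of the 6, it passed (0.33, limma adjusted p = 0.0419).

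**Figure D2:**
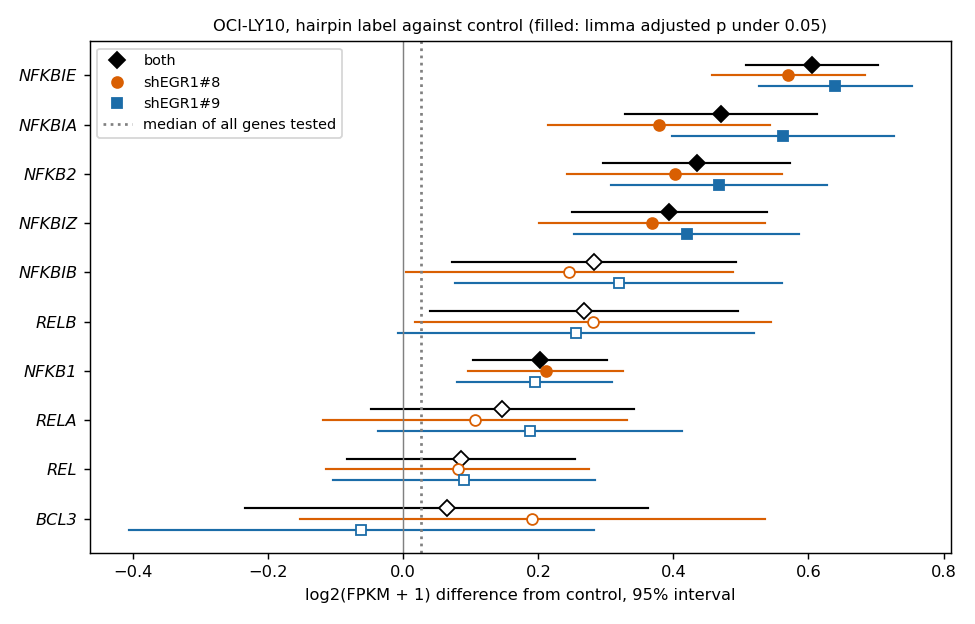
Difference of the hairpin libraries from the control libraries of OCI-LY10 on the log2(FPKM + 1) scale, with 95% intervals from limma, for shEGR1#8, shEGR1#9 and their average (3 libraries per group). Filled markers passed at an adjusted p under 0.05, the dotted line is the median of all genes tested (0.03), and NFKBIE, NFKBIA, NFKB2 and NFKBIZ lie farthest to the right, with filled markers for both hairpins.

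Read hairpin by hairpin, the same 4 genes passed with each. With shEGR1#8, 5 of the 10 rose (3.71% of all genes rose): NFKBIE by 0.57, NFKB2 by 0.40, NFKBIA by 0.38, NFKBIZ by 0.37 and NFKB1 by 0.21. With shEGR1#9, 4 rose (3.55% of all genes): NFKBIE by 0.64, NFKBIA by 0.56, NFKB2 by 0.47 and NFKBIZ by 0.42. NFKB1 had a difference of 0.19 with shEGR1#9 (limma adjusted p = 0.0661) and 0.21 with shEGR1#8 (limma adjusted p = 0.0489). The 2 comparisons share their 3 control libraries, and leaving out any 1 control left NFKBIE as the only call with shEGR1#8. NFKB1 lost its call there without any 1 of the 9 libraries (limma adjusted p = 0.0529 to 0.170), and NFKBIZ also without shEGR1#9 replicate 1 or 2. With shEGR1#9, NFKBIZ lost its call without control replicate 1 or 2 or any 1 shEGR1#9 library (limma adjusted p = 0.0573 to 0.0785), and NFKB2 without control replicate 3 (limma adjusted p = 0.0507). Without the libraries numbered 3 of every group, NFKBIA and NFKBIE alone passed with each hairpin. NFKB1 gained a call with shEGR1#9 without shEGR1#8 replicate 3 (limma adjusted p = 0.0245).

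The hairpins were also set against each other. None of the 10612 genes differed between shEGR1#9 and shEGR1#8 by limma (0% called, 267 genes at an unadjusted p under 0.05). NFKBIA had the lowest p of the 10 genes, with 107.5 ± 4.07 FPKM under shEGR1#8 and 122.5 ± 11.1 under shEGR1#9 (log2 difference 0.18, interval 0.02 to 0.35). It did not pass (limma adjusted p = 1.00). BCL3 had the widest interval, −0.60 to 0.09 around −0.25. For NFKBIE the interval was −0.04 to 0.18, and for NFKB1 −0.13 to 0.10.

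The kinases and receptors that feed NF-kB and the genes it drives were read from lists chosen with earlier results of these data known. Beside their counts stand those of all 10612 genes, of which 5.84% rose and 2.71% fell. Unadjusted, 2767 of these had a limma p under 0.05, in either direction. None of the 13 IkB kinases and their activators passed, in either direction, with a median difference of 0.04 (0 of 13 by limma, with 3 above and 1 below 0 at an unadjusted p under 0.05). Of 22 receptors and adaptors that signal to these kinases, 19 were tested, 4 rose and 0 fell (6 and 1 at an unadjusted limma p under 0.05). The B-cell receptor chain CD79A rose by 0.65, the co-stimulatory receptor CD40 by 0.51 (79.1 ± 0.726 to 114.8 ± 8.75 and 110.9 ± 1.44 FPKM), the BAFF receptor TNFRSF13C by 0.47 and the adaptor MYD88 by 0.30. Of the 8 B-cell markers, 2 rose in the same libraries, CD79A and the class II chaperone CD74 (0.84), and 6 did not pass. At an unadjusted limma p under 0.05, 2 lay above and 2 below 0, and the median of these markers was 0.03, as over all genes. The part of CD79A and CD74 in the result was not tested.

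Of 15 other inhibitors of NF-kB, 11 were tested, 2 rose and 0 fell (2 and 0 at an unadjusted limma p under 0.05). For this list and the next, the shares over all genes were 5.84% risen and 2.71% fallen. TNFAIP3, a ubiquitin-editing enzyme that ends the signal, rose by 0.30, and N4BP1, another inhibitor of the pathway, by 0.20. Of the 7 genes of the machinery that ubiquitinates and destroys IkB, 1 rose, the F-box protein FBXW11, by 0.22.

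Of 38 known NF-kB targets, 27 were tested, 10 rose, 1 fell and 16 did not pass (5.84% of all genes rose and 2.71% fell). At an unadjusted limma p under 0.05 the counts were 12 and 5, and 14 of the 27 lay above 0. The chemokine CCL3 rose most, from 3.20 ± 0.146 to 8.00 ± 0.443 and 8.29 ± 0.945 FPKM (1.12 log2 units, limma adjusted p = 1.54e-04). The chemokine CCL4 rose by 0.72, the transcription factor STAT5A by 0.66 and TNFAIP2 by 0.63. The cell-cycle gene CCND2 fell by 0.33, from 106.2 ± 2.21 to 84.6 ± 4.05 and 83.8 ± 3.53 FPKM. The median of the tested targets was 0.08, so the list as a whole did not stand where its top genes did. CD40 is on both the receptor and the target list.

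**Figure D3:**
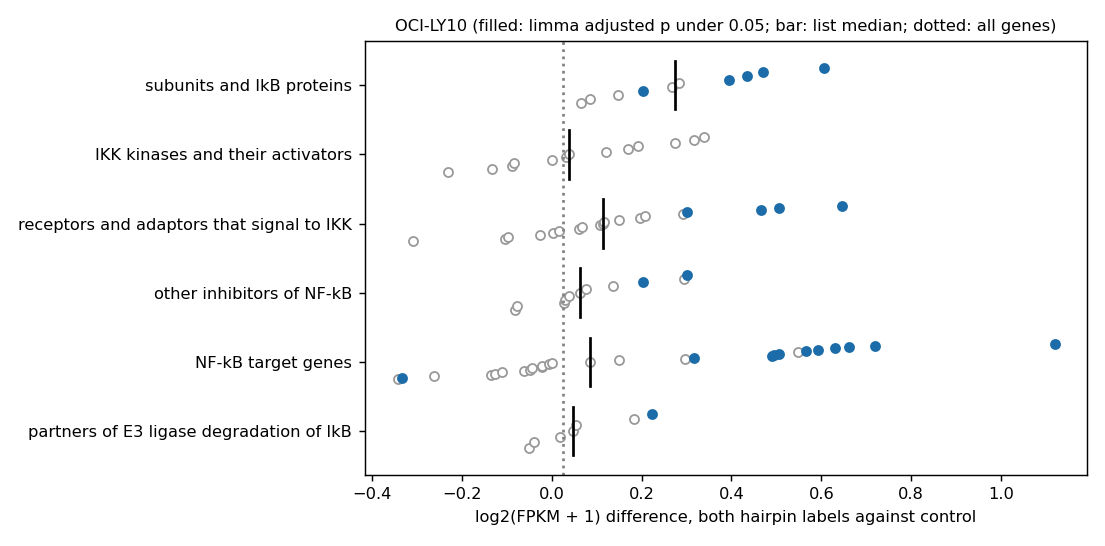
Difference of both hairpin labels from control in OCI-LY10 on the log2(FPKM + 1) scale, for each tested gene of 6 lists (rows), with filled points for limma adjusted p under 0.05 and a bar at the list median. The 10 subunits and IkB proteins have a median of 0.28, the 13 kinases and activators a median of 0.04 and no filled point, and the targets reach from −0.34 to 1.12 (CCL3).

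For each gene that rose, the 2 genes whose levels followed it most closely over the 9 OCI-LY10 libraries (3 groups, so the correlation holds the group difference) were read out by Pearson correlation of log2(FPKM + 1), as a description. For NFKBIE they were ARHGAP31 (0.998) and IFI30 (0.993), and for NFKBIA ZNF784 (0.978) and ADAP2 (0.971). For NFKB2 they were ALDH2 (0.996) and PREX1 (0.989), and for NFKB1 DNAJB5 (0.992) and STAT2 (0.989). For NFKBIZ they were C5orf30 and MAP3K8 (0.991 each). Each of the 10 genes so named rose in the hairpin libraries too (5.84% of all genes rose). Their choice by correlation with a riser over the same libraries nearly fixes this, so it is no separate result.

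TMD8 and SUDHL2 have 1 library per group, so their differences carry no replicate check and no test, and a gene was counted only when both hairpin libraries were at least 1.5-fold from the control library in 1 direction. In TMD8, REL alone of the 10 genes passed that rule upward and 0 passed downward, where 6.78% of 11807 genes lay above and 13.9% below. REL stood at 19.5 FPKM in the control library, 43.2 with shEGR1#8 and 30.2 with shEGR1#9 (1.11 and 0.61 on the log2 scale). In SUDHL2 none of the 10 genes passed, where 3.83% of 11631 genes lay above and 2.16% below.

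The subunits showed no shared direction in these libraries. NFKB1 was lower with both hairpins in TMD8 (58.7 FPKM against 44.8 and 44.3) and in SUDHL2 (57.8 against 48.7 and 44.5). NFKB2 was higher with both in SUDHL2 (44.3 against 57.1 and 54.2) and in TMD8 only with shEGR1#9 (36.6 against 36.3 and 45.1). The sign of the shEGR1#8 difference of NFKB2 in TMD8 (−0.01) turned under median-ratio scaling (0.08), and so did that of RELB (−0.04 to 0.05). RELA was higher with both hairpins in TMD8 (22.5 against 26.6 and 38.2) and in SUDHL2 (27.5 against 29.6 and 33.9). RELB read 17.4, 17.0 and 24.1 FPKM in the control, shEGR1#8 and shEGR1#9 libraries of TMD8 and 34.3, 39.2 and 38.5 in those of SUDHL2. REL in SUDHL2 was lower with both (33.2 against 32.8 and 27.5), opposite to TMD8.

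Among the IkB proteins the nuclear pair parted. BCL3 was higher with both hairpins in TMD8 (37.2 against 50.6 and 71.0 FPKM) and in SUDHL2 (64.3 against 88.9 and 100.3), while NFKBIZ was lower with both in TMD8 (96.9 against 70.5 and 66.9) and in SUDHL2 (82.3 against 76.4 and 73.4). The microRNA gene MIR8085, which RefSeq places within BCL3, was listed at 1122 FPKM in the shEGR1#8 library of SUDHL2 and at 0 in the other TMD8 and SUDHL2 libraries. NFKBIA was lower with both hairpins in TMD8 (78.3 against 50.1 and 75.6) and higher with both in SUDHL2 (85.1 against 92.1 and 101.7). NFKBIE did likewise (23.0 against 20.4 and 21.6 in TMD8, 25.9 against 31.1 and 33.8 in SUDHL2). NFKBIB was higher with both in TMD8 (37.2 against 45.4 and 46.1) and mixed in SUDHL2 (50.5 against 43.6 and 53.9).

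Short RNA genes took 36.3% of the FPKM in the TMD8 control library and 63.1 and 60.5% in its hairpin libraries, against 53.6 to 55.3% in SUDHL2 and 0.471 to 0.613% in OCI-LY10. In TMD8 this share moved with the hairpin labels. Markers of other cell types also differed between the libraries, given here as summed FPKM in the control, shEGR1#8 and shEGR1#9 library. The 8 fibroblast and epithelial markers read 34.4, 42.2 and 44.0 in TMD8 and 24.1, 45.1 and 39.4 in SUDHL2, with EPCAM at 0 in both. The T and NK markers read 1.2, 3.96 and 2.50 in TMD8 and 1.86, 3.17 and 2.63 in SUDHL2, with 4 of 11 at 0 in each, CD3D among them. The myeloid markers read 1.28, 3.03 and 1.75 in TMD8, with 3 of 8 at 0, and 2.19, 1.43 and 3.24 in SUDHL2, with 4 of 8 at 0 (S100A8 and S100A9 in both). The erythroid and endothelial markers summed to at most 0.751 in either. All 8 B-cell markers reached 1 FPKM in each of these libraries. The part of the short RNA share and of these markers in the differences above was not tested. The median difference of all genes in TMD8 was −0.09 with shEGR1#8 and 0.00 with shEGR1#9.

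**Figure D4:**
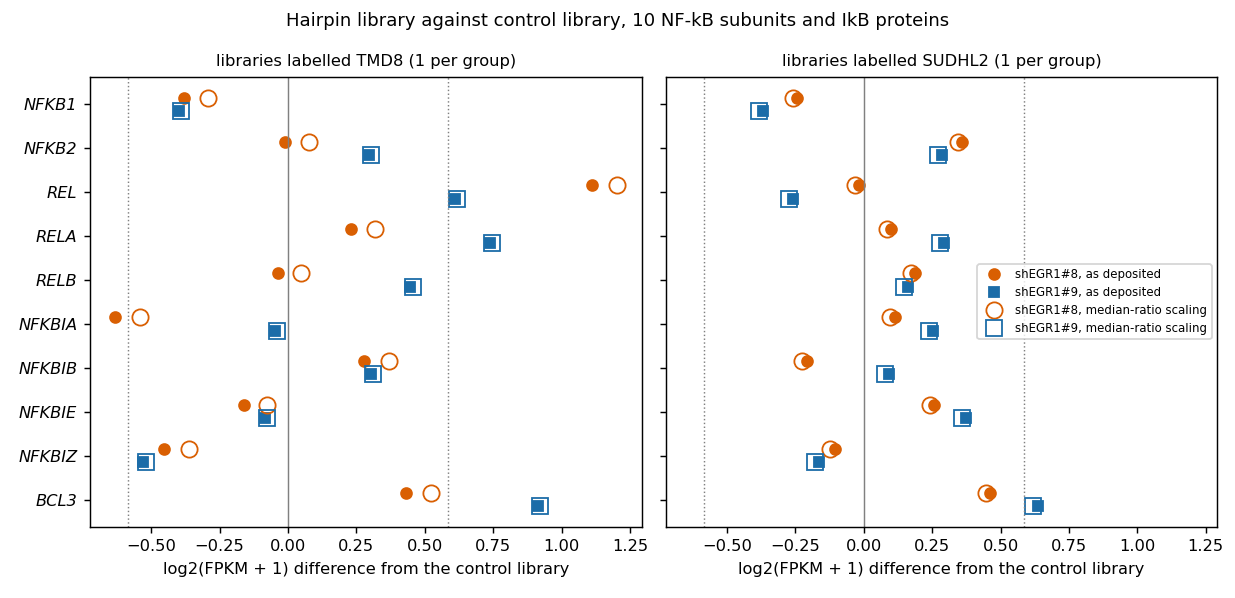
Difference of each hairpin library from the control library on the log2(FPKM + 1) scale for the 10 genes in TMD8 and SUDHL2 (1 library per group, so no error bars). Filled markers are values as deposited, open markers after median-ratio scaling, and dotted lines mark 1.5-fold. REL in TMD8 is the gene with both markers beyond 1.5-fold, and NFKB1 and NFKBIZ lie left of 0 in both lines.

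Set side by side across the tables, which may have been normalized separately, the makeup of the family differed between the labels. So did the libraries well beyond these 10 genes. Over 13203 genes, OCI-LY10 libraries correlated at 0.729 to 0.812 with those labelled TMD8 and at 0.731 to 0.762 with those labelled SUDHL2. BCL3 read 9.31 FPKM on average in OCI-LY10 controls and 37.2 and 64.3 in the TMD8 and SUDHL2 control libraries. NFKBIB read 15.8 against 37.2 and 50.5, and NFKB1 31.0 against 58.7 and 57.8. NFKBIE went the other way, at 80.8 against 23.0 and 25.9. In every hairpin and control library of OCI-LY10, NFKBIE was at or above 78.1 FPKM, and in no TMD8 or SUDHL2 library was it above 33.8. For NFKBIA the control levels were close, at 82.5, 78.3 and 85.1. These are descriptions of 9, 3 and 3 libraries.

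**Figure D5:**
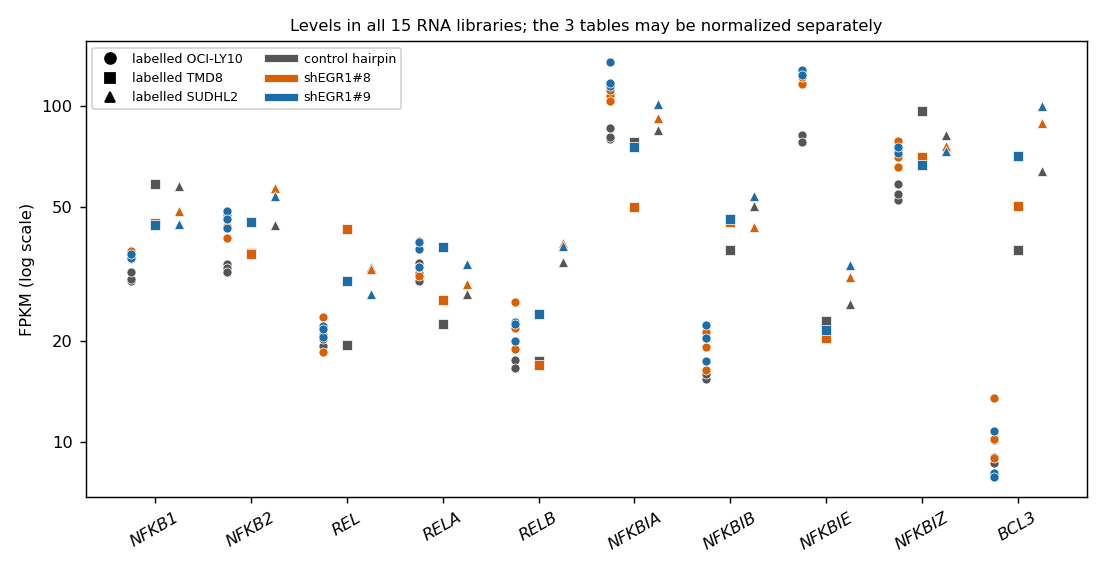
FPKM (log scale) of the 10 genes in all 15 RNA libraries, with marker shape for the cell line label and colour for the hairpin. NFKB1, BCL3 and NFKBIB lie lower and NFKBIE higher in OCI-LY10 than in the other labels. Between TMD8 and SUDHL2 the ranges of RELB, NFKBIA and NFKBIE do not overlap, with SUDHL2 higher, and those of the other genes overlap. Libraries of these labels correlated at 0.867 to 0.930 with each other over 13203 genes. The share of all genes whose ranges do not overlap between labels was not counted, so no weight is put on these separations.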

How the data were processed

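The deposited expression files, a table for each cell line, hold 1 value per gene and library, read here as FPKM. Neither labels nor file headers name the unit, and the reading rests on the values: they are not whole and do not sum to 1 fixed total (431993 to 445028 in OCI-LY10). Genes under 0.08 FPKM were also compared between each OCI-LY10 library and the first control library, at the best-fitting of many scale offsets. There 24.7 to 33.1% stood in whole-number ratios (within 0.01 log2 units), against at most 3.54% at the median offset. Such ratios mark scaled counts and do not single out FPKM. Against the control library this share was 81.2 to 88.2% in SUDHL2 (at most 1.04% at the median offset). It was only 8.33 to 10.4% in TMD8 (3.47 to 3.76% at the median offset), where the reading is least secure. The authors used Bowtie2, HISAT and StringTie with build hg19, per the submitters' processing notes. Their versions and roles, the annotation, strand use and scaling are not stated in the labels or files. Lines with a repeated name were removed (4, 10 and 10), and in the SUDHL2 file 1 joined line and the 429 after it, which equal the end of the TMD8 table, were left out. Libraries were grouped by title. The 4 chromatin samples were not analysed here.

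Genes at 1 FPKM or more in at least 3 of 9 OCI-LY10 libraries (10612) were fitted in limma 3.58.1 (R 4.3.3) as log2(FPKM + 1), which understates changes of low genes, with 1 mean per group, a mean-variance trend and Benjamini-Hochberg adjustment. Directions were called at an adjusted p under 0.05. The procedure was run on simulated data with independent noise and changes larger than that of any of the 10 genes but NFKBIE. That run does not cover smaller changes or deviations shared between libraries. TMD8 and SUDHL2 used genes at 1 FPKM or more in at least 1 of 3 libraries. Deviations of same-numbered libraries of the 2 hairpins correlated at 0.134 to 0.260, and those of different-numbered ones at −0.269 to 0.146. These ranges overlap, so the numbers paired the hairpin libraries only loosely, and the labels state no pairing. Alternatives were other pseudocounts, filters, scalings, weights, a replicate block and left-out libraries. Other steps used Python 3.11.15, numpy 2.4.6, pandas 2.3.3 and matplotlib 3.10.9. Named are the 10 genes, EGR1, up to 4 risers and 4 fallers per pathway list, and the 2 closest genes per riser, with overlapping genes and markers added after their values were seen. The genes and lists were chosen with earlier results of these data known.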

Additional observations from a re-analysis of the deposited data

Results flagged for a closer look

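Some genes moved one way in every hairpin library of a cell line label and the other way in every hairpin library of another. The difference between labels was not tested, and with 2 hairpin libraries set against 1 control library in TMD8 and in SUDHL2 it has no replicate check there. NFKB1 lay above all controls in the 6 hairpin libraries of OCI-LY10 and below the control library in TMD8 and in SUDHL2, so that the mean log2 difference of OCI-LY10 exceeded theirs by 0.59 and 0.51. NFKBIZ did the same, by 0.89 against TMD8 and 0.53 against SUDHL2. NFKBIA exceeded TMD8 by 0.81 in OCI-LY10, and the TMD8 difference minus that of SUDHL2 was −0.52. For NFKBIE these values were 0.73 and −0.44. REL was higher with both hairpins in TMD8 and lower with both in SUDHL2, 1.00 apart. Genes were flagged by sign alone, with no least size. The log2 difference of REL with shEGR1#8 in SUDHL2 was only −0.02, and that of NFKBIA with shEGR1#9 in TMD8 −0.05. The libraries labelled TMD8 and SUDHL2 resembled each other as much across labels as within them, and the share of short RNA differed between the TMD8 libraries. The part of either in these differences was not tested.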

How the results depend on the processing

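Of 190 values of the 10 genes under the alternatives, for both hairpins against control in OCI-LY10, 175 kept direction and side of the threshold, 9 lost the call, 2 gained it and 4 turned sign. NFKB2, NFKBIA and NFKBIE kept their call in each. NFKB1 fell short with median-ratio scaling (0.17) and RELB passed with array weights (0.27, limma adjusted p = 0.0399). BCL3 turned to −0.052 with array weights. With 1 library left out, the log2 difference ranged from 0.19 to 0.23 for NFKB1, 0.36 to 0.44 for NFKBIZ, 0.24 to 0.33 for NFKBIB (passing without shEGR1#8 replicate 2, limma adjusted p = 0.0419) and −0.012 to 0.12 for BCL3, and with shEGR1#9 alone from −0.19 to 0.012 for BCL3. Between the hairpins it ranged from −0.035 to 0.0029 for NFKB1, −0.088 to 0.079 for REL, −0.13 to 0.090 for RELB, −0.022 to 0.17 for NFKBIB and −0.0060 to 0.12 for NFKBIZ, and turned to −0.066 for REL and 0.038 for RELB with array weights. Without the libraries numbered 3 it was 0.21 for NFKB1 (limma adjusted p = 0.0693) and −0.12 for BCL3 with both hairpins, −0.033 for RELA and −0.0046 for BCL3 with shEGR1#8, and −0.095 for REL and 0.068 for RELB between the hairpins.

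Of all genes, 908 were called with both hairpins, 285 to 1312 with 1 library left out, 353 without those numbered 3 and 1914 with array weights. For shEGR1#8 the left-out counts were 134 to 696 (156 without those numbered 3) and for shEGR1#9 144 to 1143 (187), with 1950 under array weights. Between hairpins 0 to 9 were called with 1 library left out, 1 without those numbered 3 and 1 with no filter on low values. Apart from the block, the alternatives between hairpins, and those for the counts in TMD8 and SUDHL2, were added after seeing the data. Fewer libraries enter a left-out fit; otherwise the cause was not tested. A pseudocount of 0.1 raised the genes 1.5-fold above control from 800 to 1345 in TMD8 and from 446 to 755 in SUDHL2.

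Replicate numbers did not pair controls with hairpin libraries, whose same-numbered deviations correlated at −0.188 to 0.060. Between the hairpins, whose numbers paired only loosely, the replicate block changed no call (0 genes, 277 at an unadjusted limma p under 0.05). Against control, the block called 775 genes with both hairpins, 349 with shEGR1#8 and 351 with shEGR1#9. It kept the 5 called genes with both hairpins, and with shEGR1#8 NFKB1 (limma adjusted p = 0.0753) and NFKBIZ (0.0505) no longer passed. Counts behind FPKM are unknown, so no counting error can be given.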
